A study of Danio rerio with 9 samples.

Results

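The myogenic regulatory factors are the transcription factors that commit mesodermal cells to skeletal muscle and switch on the muscle genes. Here they are the MyoD family genes *myf5*, *myod1*, *myog* and *myf6* together with *mef2ca* and *mef2d* of the MEF2 family, chosen by name. They make up 6 of the 32020 lines of the count table, each name is on 1 line, and all 6 are among the 19914 genes that passed the filter on low counts. RNA was sequenced from dissected zebrafish tailbuds in 9 samples, each a pool of 10 tailbuds cut just behind the last formed somite. The 3 groups, with 3 samples each, were the transgenic lines tg(*hsp70l:tbx16*) and tg(*hsp70l:msgn1*) and their wild-type controls. The comparisons ask how these genes differ after heat-shock induction of the T-box factor Tbx16 or the bHLH factor Msgn1. Both are regulators of mesodermal progenitor exit from the tailbud.

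Every embryo, wild type included, was heat-shocked for 30 min at the 2 to 3 somite stage and collected 3 h later. Both transgenes place the full coding sequence behind the heat-inducible *hsp70l* promoter, which is not restricted to the cells that normally make the factor. In which cells the transgenes were expressed was not measured here. The wild-type embryos were non-transgenic siblings of the tg(*hsp70l:msgn1*) embryos, and the tg(*hsp70l:tbx16*) embryos came from other parents, so genotype and parentage cannot be told apart in that line. Embryos without heat shock were not analysed here. The study's methods give a higher heat-shock temperature than the 28 °C in the sample labels. The value in the labels is close to the temperature at which the methods kept the embryos after the heat shock.

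MyoD family proteins are bHLH factors that pair with E proteins and bind E-boxes in muscle genes. *myf5* and *myod1* act first, as determination genes that commit cells to the lineage, *myog* drives differentiation, and *myf6* (also called *mrf4*) acts mostly in differentiating and mature fibres. MEF2 proteins are MADS-box factors that bind A/T-rich sites and work with the MyoD family on muscle gene promoters. In the zebrafish tailbud, *myf5* is switched on in the presomitic mesoderm and *myod1* in the adaxial cells beside the notochord, the precursors of slow fibres, and *mef2d* and *mef2ca* follow as the cells differentiate.

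Total counts per sample lay between 30750552 and 49654769. The transgenes matched the labels: *tbx16* was 2.22-fold higher than wild type in tg(*hsp70l:tbx16*) (edgeR quasi-likelihood test, adjusted p = 0.00149) and *msgn1* 2.28-fold higher in tg(*hsp70l:msgn1*) (adjusted p = 0.0262), with no overlap of the groups in either case. The second call was lost, though not the direction, without any 1 of the wild-type samples, tg(*hsp70l:tbx16*) replicate 2, or tg(*hsp70l:msgn1*) replicate 1 or 3 (log2 fold change of at least 1.11, adjusted p of at most 0.147). Reads of a transgene and of the gene itself are not separated. The labels do not say whether samples of a group came from separate clutches, so the p-values measure the spread between these samples. Levels are given as CPM, a count relative to the size of its library, after TMM scaling, which also takes out differences in library composition. No gene lengths were used, so levels are compared between samples and not between genes.

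Of the 6 genes, *mef2ca* was the one that rose in tg(*hsp70l:tbx16*). The 4 MyoD family genes and *mef2d* did not pass the test there, and none of the 6 passed in tg(*hsp70l:msgn1*). A gene was called where edgeR's Benjamini-Hochberg adjusted p over all genes tested was under 0.05. That is 1 of 6 in tg(*hsp70l:tbx16*) against wild type, where 30.7% of all genes tested were called, 0 of 6 in tg(*hsp70l:msgn1*) against wild type, where 0.854% were called, and 1 of 6 between the lines, where 38.3% were called. At an unadjusted p under 0.05 the counts were 2, 1 and 3 of 6, beside 41.9%, 14.1% and 48.3% of all genes. Groups did not overlap for 3, 2 and 2 of the 6 genes, beside 52.8%, 18.6% and 51.1% of all genes. The median log2 fold change of the 6 genes was -0.14, -0.04 and 0.15 in the 3 comparisons, and that of all genes tested was 0.03, -0.02 and 0.05. The 3 comparisons share samples, so they are not independent of each other.

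**Figure D1:**
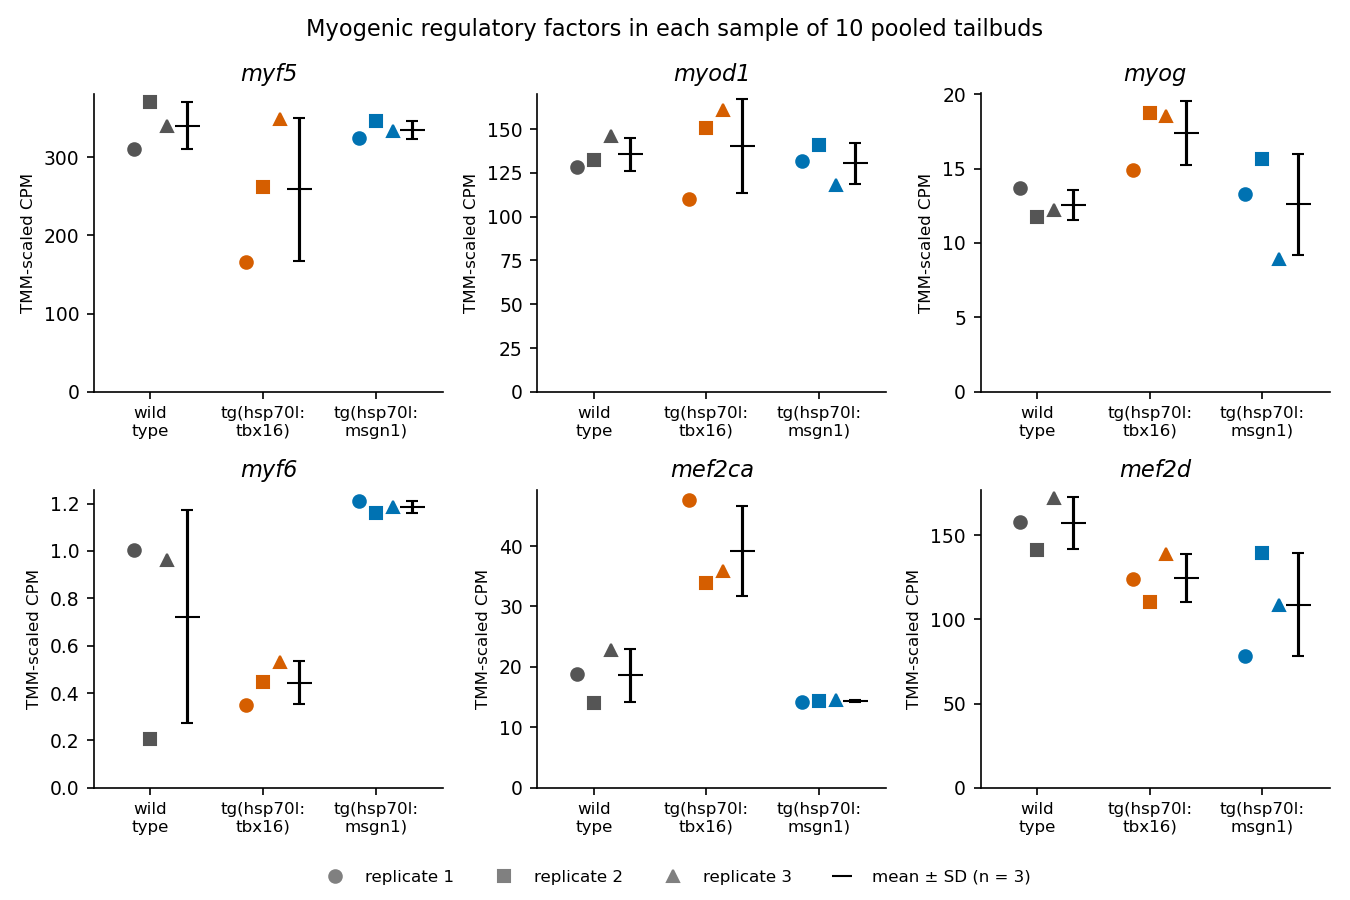
TMM-scaled CPM (y axis, from 0, with its own scale for each gene) of the 6 genes in each of the 9 samples. Points are samples with 1 symbol for each replicate number, and bars are the mean ± SD of 3 samples. *mef2ca* lies between 33.9 and 47.7 CPM in tg(hsp70l:tbx16), above all other samples, and *myf5* spreads from 166 to 349 CPM within that line.

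*myf5*, the earliest of the determination genes, had 7557 to 15715 counts a sample. It measured 310, 371 and 340 CPM in wild type, 166, 262 and 349 CPM in tg(*hsp70l:tbx16*), and 324, 346 and 333 CPM in tg(*hsp70l:msgn1*). The tg(*hsp70l:msgn1*) samples lay inside the wild-type range, whereas the tg(*hsp70l:tbx16*) samples ran from less than any other sample to a value within the wild-type range. Group means were 340 ± 30.5, 259 ± 91.6 and 335 ± 11.3 CPM (SD, n = 3). In tg(*hsp70l:tbx16*) the log2 fold change against wild type was -0.40 (95% interval -0.87 to 0.08), which did not pass edgeR's test (adjusted p = 0.192). In tg(*hsp70l:msgn1*) it was -0.02 (-0.50 to 0.45, adjusted p = 0.976), and between the lines it was -0.37 (-0.85 to 0.11, adjusted p = 0.198).

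The outcome for *myf5* in tg(*hsp70l:tbx16*) turned on replicate 3 of that line. Without it the log2 fold change was -0.67 with an edgeR adjusted p of 0.0298 against wild type and -0.65 with an adjusted p of 0.0284 between the lines, and without replicate 1 it was -0.15 against wild type. Replicate 3 also had the lowest level of *tbx16* in the line, 564 CPM against 836 and 976 CPM in replicates 1 and 2, while wild type had 332, 364 and 372 CPM. Whether the level of *tbx16* has a part in the spread of *myf5* was not tested.

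*myod1*, the second determination gene, had 3274 to 8425 counts a sample and did not pass the test in any comparison. Its levels were 128, 132 and 146 CPM in wild type, 110, 151 and 161 CPM in tg(*hsp70l:tbx16*), and 132, 141 and 118 CPM in tg(*hsp70l:msgn1*), so all 3 groups overlapped. The spread was widest in tg(*hsp70l:tbx16*), with a mean of 141 ± 26.9 CPM against 136 ± 9.53 in wild type and 131 ± 11.6 in tg(*hsp70l:msgn1*) (SD, n = 3). The log2 fold change against wild type was 0.05 (95% interval -0.26 to 0.37) in tg(*hsp70l:tbx16*) and -0.06 (-0.37 to 0.26) in tg(*hsp70l:msgn1*), with edgeR adjusted p of 0.811 and 0.899. Between the lines it was 0.11 (-0.21 to 0.43, adjusted p = 0.577). The values against wild type changed sign with single libraries left out, that of tg(*hsp70l:tbx16*) without its replicate 3 (-0.06) and that of tg(*hsp70l:msgn1*) without replicate 3 of wild type or of tg(*hsp70l:msgn1*) (0.01 in each case), and so did the value between the lines without tg(*hsp70l:tbx16*) replicate 3 (-0.0073).

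The balance between the determination genes can be read within each sample, where scaling between libraries has no effect. For every 100 counts of *myod1* there were 242, 281 and 232 counts of *myf5* in wild type and 246, 245 and 282 in tg(*hsp70l:msgn1*), but 150, 174 and 216 in tg(*hsp70l:tbx16*). All 3 tg(*hsp70l:tbx16*) samples lay below all 6 others. This ratio was chosen with values of these genes known and was not tested, and it depends on the lengths of both transcripts, so its size has no meaning beyond the comparison between samples.

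*myog*, the differentiation gene, had 294 to 1047 counts a sample. Levels were 13.7, 11.8 and 12.2 CPM in wild type, 14.9, 18.7 and 18.5 CPM in tg(*hsp70l:tbx16*), and 13.3, 15.6 and 8.93 CPM in tg(*hsp70l:msgn1*). Each tg(*hsp70l:tbx16*) sample was above each wild-type sample. The tg(*hsp70l:msgn1*) samples spread on both sides of the wild-type range and overlapped tg(*hsp70l:tbx16*).

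The mean of *myog* was 17.4 ± 2.14 CPM in tg(*hsp70l:tbx16*) against 12.6 ± 0.996 in wild type (SD, n = 3), a log2 fold change of 0.47 (95% interval 0.03 to 0.91). Its p-value was 0.0397 before adjustment and 0.101 after it by edgeR's test over all genes, so the gene was not called. The difference passed when tg(*hsp70l:msgn1*) replicate 3, the sample with the lowest *myog*, was left out of the shared estimate of the spread (log2 fold change 0.47, adjusted p = 0.0377). The tg(*hsp70l:msgn1*) mean was 12.6 ± 3.40 CPM and the log2 fold change 0.01 (-0.44 to 0.45, adjusted p = 0.995). Between the lines *myog* was 0.46 higher on the log2 scale in tg(*hsp70l:tbx16*) (0.02 to 0.90, adjusted p = 0.0909), which became 0.65 without tg(*hsp70l:msgn1*) replicate 2 (adjusted p = 0.0311) and 0.26 without its replicate 3 (adjusted p = 0.245). Per 100 counts of *myod1*, the counts of *myog* were 10.7, 8.91 and 8.35 in wild type, 13.5, 12.4 and 11.5 in tg(*hsp70l:tbx16*), and 10.1, 11.1 and 7.55 in tg(*hsp70l:msgn1*), again with the tg(*hsp70l:tbx16*) samples apart from the others.

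*myf6* had few counts, 7 to 44 a sample. Its levels were 1.00, 0.204 and 0.962 CPM in wild type, 0.351, 0.447 and 0.533 CPM in tg(*hsp70l:tbx16*), and 1.21, 1.16 and 1.18 CPM in tg(*hsp70l:msgn1*). The tg(*hsp70l:tbx16*) samples were all below the tg(*hsp70l:msgn1*) samples, and wild type reached from below the first to just under the second, its replicate 2 holding 7 counts. The log2 fold change was -0.71 (95% interval -1.91 to 0.48, edgeR adjusted p = 0.350) in tg(*hsp70l:tbx16*) and 0.70 (-0.48 to 1.87, adjusted p = 0.588) in tg(*hsp70l:msgn1*). Without wild-type replicate 2 these values were -1.14 (adjusted p = 0.0691) and 0.27 (adjusted p = 0.840), and the first was -0.41 without wild-type replicate 1 and -0.46 without wild-type replicate 3. Between the lines it was -1.41 (-2.61 to -0.21). The p-value of that difference was 0.0256 before adjustment and 0.0621 after it by edgeR's test over all genes, and 0.017 after it without wild-type replicate 2. In the RefSeq annotation of zebrafish *myf6* and *myf5* are direct neighbours. The counts of *myf6* per 100 counts of *myf5* were 0.323, 0.0551 and 0.283 in wild type, 0.212, 0.171 and 0.153 in tg(*hsp70l:tbx16*), and 0.373, 0.335 and 0.355 in tg(*hsp70l:msgn1*).

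*mef2ca*, a MEF2 factor of differentiating skeletal muscle that is also expressed in heart and in head skeleton precursors, had 352 to 2173 counts a sample. Levels were 18.9, 14.1 and 22.8 CPM in wild type, 47.7, 33.9 and 35.9 CPM in tg(*hsp70l:tbx16*), and 14.2, 14.3 and 14.5 CPM in tg(*hsp70l:msgn1*). The lowest tg(*hsp70l:tbx16*) sample was above the highest of the 6 others, and the tg(*hsp70l:msgn1*) samples were close together at the lower end of the wild-type range.

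The mean of *mef2ca* was 39.2 ± 7.44 CPM in tg(*hsp70l:tbx16*) and 18.6 ± 4.33 in wild type (SD, n = 3), a 2.11-fold increase (95% interval 1.58 to 2.80). The log2 fold change was 1.07 with a standard error of 0.19 and an edgeR adjusted p of 0.00196. The tg(*hsp70l:msgn1*) mean was 14.3 ± 0.168 CPM and the log2 fold change against wild type -0.37 (-0.79 to 0.04, adjusted p = 0.394), and -0.20 without wild-type replicate 3. The direct test between the lines gave a 2.73-fold difference (2.04 to 3.65, adjusted p = 0.000353). *mef2ca* was called in all 16 alternative analyses of both comparisons that involve tg(*hsp70l:tbx16*).

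*mef2d*, the MEF2 gene that starts earliest in zebrafish muscle precursors, had 1939 to 7152 counts a sample, was lower in both lines than in wild type and was not called. It measured 158, 141 and 172 CPM in wild type, 124, 110 and 139 CPM in tg(*hsp70l:tbx16*), and 78.2, 140 and 108 CPM in tg(*hsp70l:msgn1*). Every sample of both lines was below every wild-type sample, by a small margin for tg(*hsp70l:tbx16*) replicate 3 and tg(*hsp70l:msgn1*) replicate 2. 

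The mean of *mef2d* was 157 ± 15.4 CPM in wild type, 124 ± 14.3 in tg(*hsp70l:tbx16*) and 109 ± 30.8 in tg(*hsp70l:msgn1*) (SD, n = 3). In tg(*hsp70l:tbx16*) the log2 fold change was -0.34 (95% interval -0.75 to 0.08, edgeR adjusted p = 0.202). In tg(*hsp70l:msgn1*) it was -0.53 (-0.95 to -0.11), and its p-value was 0.0176 before adjustment and 0.263 after it by edgeR's test over all genes. Leaving out tg(*hsp70l:msgn1*) replicate 2, the sample with the highest *mef2d* of the line, gave -0.75 with an adjusted p of 0.0343, and leaving out replicate 1, the lowest, gave -0.34. The lines did not differ from each other beyond their spread (0.19, -0.22 to 0.61, adjusted p = 0.439).

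**Figure D2:**
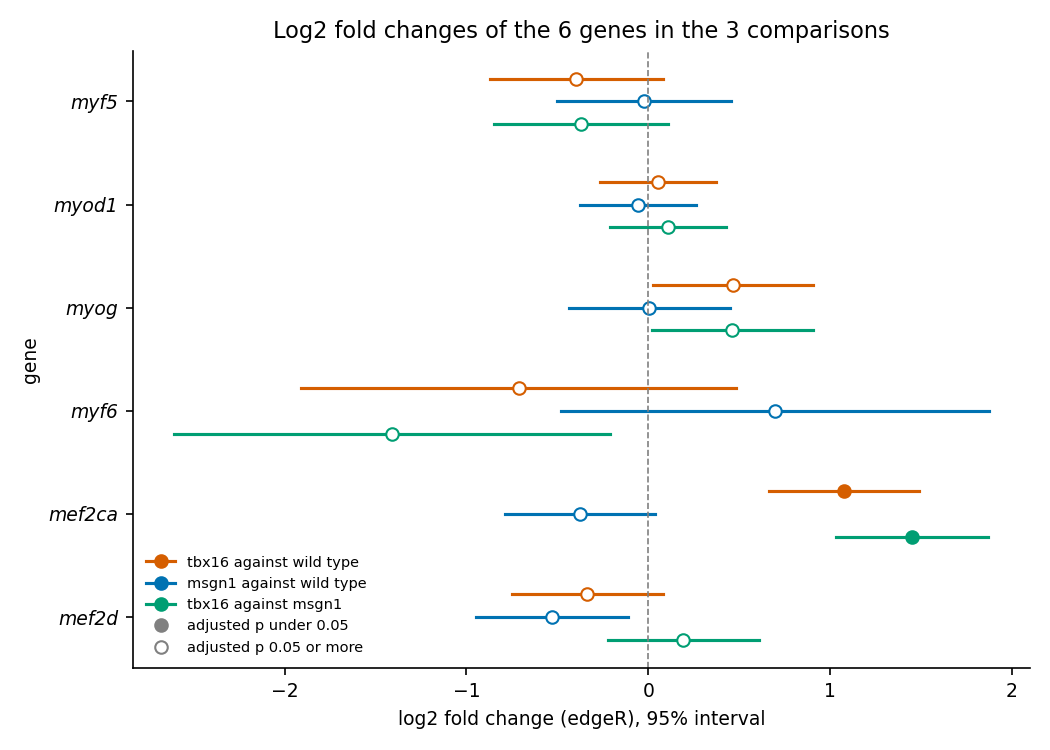
Log2 fold change from edgeR (x axis) of the 6 genes (y axis) in the 3 comparisons, with 95% intervals as lines. Filled points have an adjusted p under 0.05. The 2 filled points are those of *mef2ca*, at 1.07 and 1.45, and the widest intervals are those of *myf6*, which had 7 to 44 counts a sample.

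Within the samples, *mef2ca* stood at 12, 9.99 and 13.2 counts per 100 counts of *mef2d* in wild type, 18.2, 10.2 and 13.4 in tg(*hsp70l:msgn1*), and 38.4, 30.7 and 25.9 in tg(*hsp70l:tbx16*). The tg(*hsp70l:tbx16*) samples were again apart from all 6 others. Against *myod1* the counts of *mef2ca* per 100 were 14.7, 10.7 and 15.6 in wild type, 43.2, 22.5 and 22.3 in tg(*hsp70l:tbx16*), and 10.8, 10.1 and 12.3 in tg(*hsp70l:msgn1*). These ratios use *mef2ca* itself, whose difference was already known, and are given as a description.

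**Figure D3:**
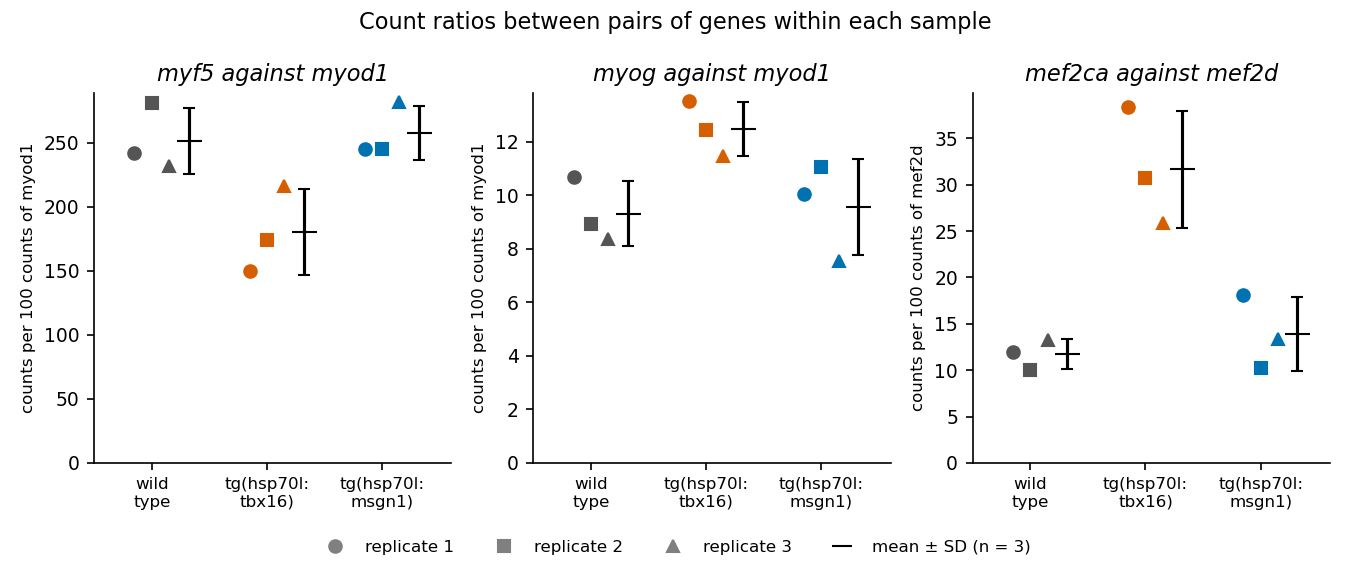
Counts of *myf5* and of *myog* per 100 counts of *myod1*, and of *mef2ca* per 100 counts of *mef2d* (y axes, from 0), in each of the 9 samples, with the mean ± SD of 3 samples as bars. In tg(hsp70l:tbx16) the first ratio is 150 to 216 and below the other 6 samples, the second is 11.5 to 13.5 and above them, and the third is 25.9 to 38.4 and above them.

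Of the 4 other MEF2 genes, 2 were called higher in tg(*hsp70l:tbx16*) against wild type and 0 in tg(*hsp70l:msgn1*), where 2 had an unadjusted p under 0.05 (*mef2cb* higher and *mef2aa* lower, edgeR adjusted p = 0.219 and 0.346). *mef2cb*, the duplicate of *mef2ca* from the fish genome duplication, measured 9.14, 6.40 and 7.58 CPM in wild type, 30.5, 21.9 and 23.7 CPM in tg(*hsp70l:tbx16*), and 11.4, 10.4 and 12.6 CPM in tg(*hsp70l:msgn1*). That is 3.29-fold higher than wild type in tg(*hsp70l:tbx16*) (95% interval 2.49 to 4.35, adjusted p = 0.000114), with no overlap between any of the 3 groups.

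*mef2aa* rose 5.81-fold in tg(*hsp70l:tbx16*) (95% interval 3.52 to 9.61, edgeR adjusted p = 0.000385). It had 59, 46 and 82 counts in wild type, 537, 533 and 264 in tg(*hsp70l:tbx16*), and 15, 42 and 31 in tg(*hsp70l:msgn1*). *mef2b* had 29, 11 and 16 counts in wild type, 59, 82 and 111 in tg(*hsp70l:tbx16*), and 11, 0 and 9 in tg(*hsp70l:msgn1*), and it was called between the lines (log2 fold change 2.92, adjusted p = 0.0180) but not against wild type (1.92, adjusted p = 0.0763). *mef2ab*, with 4 to 57 counts a sample, was not called in any comparison. Between the lines 3 of these 4 genes were called, all higher in tg(*hsp70l:tbx16*), the call of *mef2b* being lost without replicate 3 of that line. Against wild type a call of *mef2b* was gained with DESeq2, with only the groups compared, and without tg(*hsp70l:msgn1*) replicate 2.

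**Figure D4:**
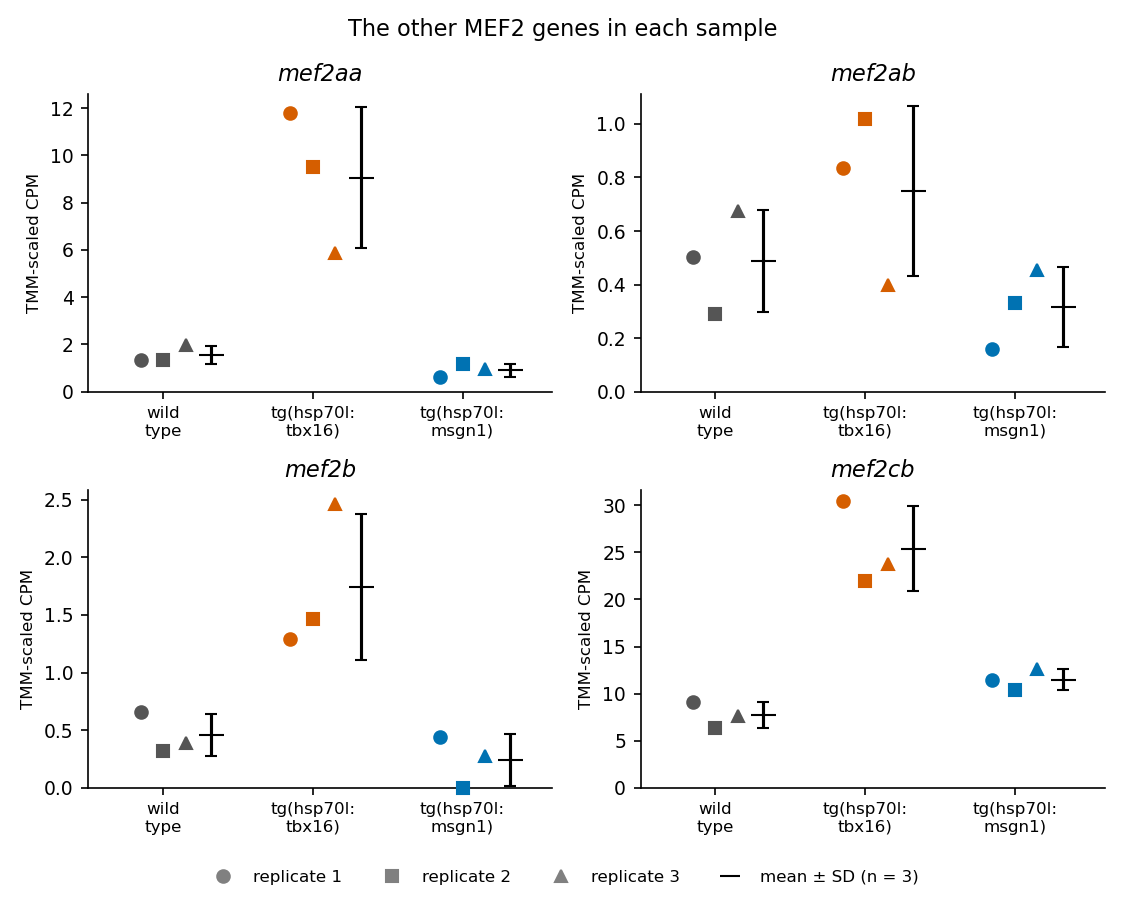
TMM-scaled CPM (y axis, from 0, with its own scale for each gene) of the MEF2 genes *mef2aa*, *mef2ab*, *mef2b* and *mef2cb* in each of the 9 samples, with the mean ± SD of 3 samples as bars. *mef2cb* lies between 21.9 and 30.5 CPM in tg(hsp70l:tbx16) and between 6.40 and 12.6 CPM in the other 6 samples.

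MEF2 genes are also read in tissues other than somitic muscle, so markers of other tissues are given beside *mef2ca*. In bulk samples, more cells of a type and more RNA per cell cannot be told apart. The 6 heart markers tested summed to 74.7 to 88.9 CPM in wild type, 12.9 to 22.8 in tg(*hsp70l:tbx16*) and 69.5 to 74.7 in tg(*hsp70l:msgn1*). In tg(*hsp70l:tbx16*) 0 of them were called higher and 2 lower (*hand2* and *gata5*). The contractile heart genes *myl7*, *cmlc1* and *myh6* had 0 to 6 counts in every sample, so these sums may not stand for heart tissue. The 9 blood and vessel markers summed to 336 to 391 CPM in wild type, 475 to 781 in tg(*hsp70l:tbx16*) and 259 to 355 in tg(*hsp70l:msgn1*). Of these, *etv2*, a regulator of the endothelial and blood lineage, and *tal1*, a blood regulator, were called higher, and *kdrl*, *fli1a* and *cdh5*, genes of vessel endothelium, lower (*cdh5* not without wild-type replicate 1 or tg(*hsp70l:tbx16*) replicate 2 or 3). The 7 neural crest markers summed to 274 to 299, 149 to 172 and 220 to 252 CPM in the same order, the 12 neural markers to 634 to 651, 205 to 298 and 403 to 492 CPM, and the 6 yolk syncytial layer markers to 3661 to 4262, 2016 to 2330 and 3585 to 5736 CPM. The summed levels of the notochord and epidermis lists overlapped between the groups, but 7 of 11 notochord markers were called lower in tg(*hsp70l:tbx16*) and 2 higher, with a median log2 fold change of -0.83 and *noto*, a homeobox gene of notochord precursors, lower by 3.79, and 2 of 7 epidermis markers were called lower (*tp63* by 1.33, and *epcam* by 0.65 with an edgeR adjusted p of 0.0462). In tg(*hsp70l:msgn1*) 1 notochord marker and 1 epidermis marker (*noto* and *tp63*) were called lower. With each of the 9 samples left out in turn, these calls were kept in 3 fits for *noto* and 6 for *tp63*. The call of *epcam* in tg(*hsp70l:tbx16*) was kept in 2 such fits. The notochord markers called higher in that line ranged from 0 to 2, and those called lower from 6 to 7. The part of these tissues in the level of *mef2ca* was not tested.

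Markers of the tissue itself were present in every sample. The 14 somite and anterior presomitic markers summed to 978 to 1073 CPM in wild type, 849 to 1481 in tg(*hsp70l:tbx16*) and 1193 to 1402 in tg(*hsp70l:msgn1*), and the 15 tailbud progenitor markers to 3496 to 3921, 2066 to 2556 and 4219 to 4537. The progenitor list holds *tbx16* and *msgn1*, which the transgenes also supply, and the other 13 markers summed to 2432 to 2668 CPM in wild type, 881 to 1407 in tg(*hsp70l:tbx16*) and 2260 to 2441 in tg(*hsp70l:msgn1*). Of all 15 progenitor markers, 12 were called lower in tg(*hsp70l:tbx16*) and 1, *tbx16* itself, higher. Of the 14 somite markers, 5 were called higher in that line and 3 lower, with a median log2 fold change of -0.12. The largest of these changes were those of *tbx18* (1.88) and *mespaa* (-1.45). In tg(*hsp70l:msgn1*) 0 of the 14 were called. The part of both lists in the levels of the myogenic genes was not tested.

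Beside the 6 genes, a list of factors of paraxial mesoderm and muscle precursors, named upstream factors here, held calls in both directions in tg(*hsp70l:tbx16*). Of 17 tested, 8 were lower and 3 higher, beside 3125 lower and 2995 higher of the 19914 genes tested, with a median log2 fold change of -0.97 against 0.03 over all genes, and without wild-type replicate 1 or tg(*hsp70l:tbx16*) replicate 2 the counts were 5 and 1. With library size alone they were 5 and 4. *tbx6*, a T-box gene of presomitic mesoderm, was at 207, 208 and 455 CPM in tg(*hsp70l:tbx16*) against 938, 1026 and 870 in wild type (log2 fold change -1.70, edgeR adjusted p = 0.00141). As with *myf5*, tg(*hsp70l:tbx16*) replicate 3 was the sample of its line nearest to wild type. For *mef2ca* it was replicate 2, with 33.9 CPM against 35.9 in replicate 3. The cause of this spread was not tested. *pax3a*, a paired-box gene upstream of the determination genes in mouse, fell by 1.65 on the log2 scale (adjusted p = 0.00241). The homeobox gene *lbx1b* had 24, 5 and 26 counts in wild type and 0 in all 3 tg(*hsp70l:tbx16*) samples. That is at least 22.5-fold lower against a floor of 3 counts over the group. Among those called higher was *lbx2*, by 1.12 on the log2 scale (edgeR adjusted p = 0.00069). Lbx genes act in muscle precursors that are already committed and in the spinal cord, so they do not stand upstream of *myf5* and *myod1*. *pax3a* is also a gene of the dorsal neural tube. The part of neural cells in these changes was not tested.

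In tg(*hsp70l:msgn1*) the median of the upstream factors was 0.57. Of the 17, 10 had an unadjusted p under 0.05, beside 14.1% of all genes, and 2 were called, both higher. Both are Lbx genes: *lbx1a* (2.89, edgeR adjusted p = 0.0295) and *lbx2* (0.82, adjusted p = 0.0491). The count was 0 when any of wild-type replicates 1, 2 or 3, tg(*hsp70l:tbx16*) replicate 2, or tg(*hsp70l:msgn1*) replicates 1 or 3 was left out, and 1 without tg(*hsp70l:tbx16*) replicate 1.

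Partners and inhibitors of the MyoD family split evenly in tg(*hsp70l:tbx16*), with 5 of 21 called higher, 5 lower and a median of 0.02 (3 lower without wild-type replicate 3 or tg(*hsp70l:tbx16*) replicate 1). *tcf12*, which codes for an E protein that pairs with the MyoD family, rose from 112, 93.3 and 125 CPM to 253, 227 and 239 CPM (log2 fold change 1.12, edgeR adjusted p = 0.00021). *hes6*, a bHLH repressor of the presomitic mesoderm that promotes myogenesis in frog, fell by 1.25 (adjusted p = 0.00135). On the same list *twist3*, *id4* and *bhlhe40* rose more than *tcf12* on the log2 scale (edgeR adjusted p = 0.00125, 0.00212 and 0.0283). *twist1a*, *smarcd3b* and *id2b* were also called lower (edgeR adjusted p = 0.00374, 0.000104 and 0.0242). The calls of *bhlhe40* and *id2b* were kept in 12 and 11 of 16 alternatives. Among 12 genes of the signals that switch the myogenic genes on or delay them, 7 were called lower and 2 higher, with a median of -1.21. Lists share genes, so their counts are not independent. *shha* and *shhb* are also notochord markers here, *fgf8a* a progenitor marker and *aldh1a2* a somite marker. *tbxtb* is in both the notochord and the progenitor list. *shha*, the hedgehog ligand that induces *myod1* in adaxial cells, was at 9.70, 12.7 and 7.42 CPM in tg(*hsp70l:tbx16*) against 49.2, 48.7 and 63.5 in wild type (-2.43, adjusted p = 3.5e-05), whereas *gli1*, a transcriptional target of hedgehog signalling, rose by 0.99 (adjusted p = 0.00254). In tg(*hsp70l:msgn1*) 0 of the 21 partners and 0 of the 12 signals were called by edgeR, and DESeq2 called 1 and 2. At an unadjusted p under 0.05 there were 2 and 4, beside 14.1% of all genes. Without tg(*hsp70l:tbx16*) replicate 3, edgeR called 1 of the partners lower.

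Genes that act in muscle downstream of the 6 factors were called in both directions in tg(*hsp70l:tbx16*). The share called was below the 30.7% over all genes for the early and sarcomere lists and above it for the slow fibre list. Of 29 early muscle genes 3 were higher and 5 lower (median -0.05), and of 11 slow fibre genes 1 and 3 (0.05). Of 27 genes on the sarcomere list, which also holds calcium-handling genes, 1 was higher and 5 lower (-0.10). *jam2a*, a myoblast fusion receptor, was higher by 0.83 on the log2 scale (edgeR adjusted p = 0.0038), and *sox6*, a repressor of the slow programme in fast fibres, by 1.68 (adjusted p = 0.000442). *sox6* is the 1 gene of the slow fibre list counted as higher, so that count does not stand for a rise of the slow programme. Of the early genes called lower, *chrnd*, *txlnba* and *klhl31* kept that call in all 16 alternatives (main edgeR adjusted p = 0.00303, 0.00282 and 0.00174). The slow fibre gene *mybpc1* was called lower (log2 fold change -1.57, adjusted p = 0.015), but not without wild-type replicate 3. *acta1a*, a skeletal actin, fell by 1.49 (adjusted p = 0.00161), from 590, 553 and 391 CPM to 122, 184 and 241 CPM. The gene of the sarcomere list called higher was *atp2a1* (log2 fold change 1.49, edgeR adjusted p = 0.0109). It codes for a calcium pump of the sarcoplasmic reticulum, so that count does not stand for a rise of sarcomere proteins. Among those called lower, *ryr1a* also codes for a calcium channel of the reticulum.

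Most of these counts depended on the processing and on single samples. For early genes called higher and lower, library size alone gave 6 and 3, DESeq2 6 and 6, and a fit of only the groups compared 7 and 5. With library size alone the slow fibre genes were 2 higher and 1 lower and the sarcomere genes 2 higher and 2 lower. The early genes called higher were 1 once wild-type replicate 2 was left out, 6 once tg(*hsp70l:tbx16*) replicate 1 was, and 5 for each of wild-type replicate 1 and tg(*hsp70l:msgn1*) replicates 2 and 3, and those called lower were 3 for each of wild-type replicates 1 and 3 and tg(*hsp70l:tbx16*) replicates 1 and 2. The slow fibre genes called lower were 0 without wild-type replicate 3 and 1 without wild-type replicate 1 or tg(*hsp70l:tbx16*) replicate 1 or 2, and those called higher were 2 without replicate 3 of either line. The sarcomere genes called lower were 1 without wild-type replicate 1 or tg(*hsp70l:tbx16*) replicate 2, 2 without wild-type replicate 3, and 3 without tg(*hsp70l:tbx16*) replicate 1 or 3. None of the early, slow or sarcomere genes was called in tg(*hsp70l:msgn1*) by edgeR. There 5 of 29, 1 of 11 and 5 of 27 had an unadjusted p under 0.05, beside 14.1% of all genes. DESeq2 called 2, 0 and 1, and edgeR called 3 early genes without tg(*hsp70l:msgn1*) replicate 2.

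**Figure D5:**
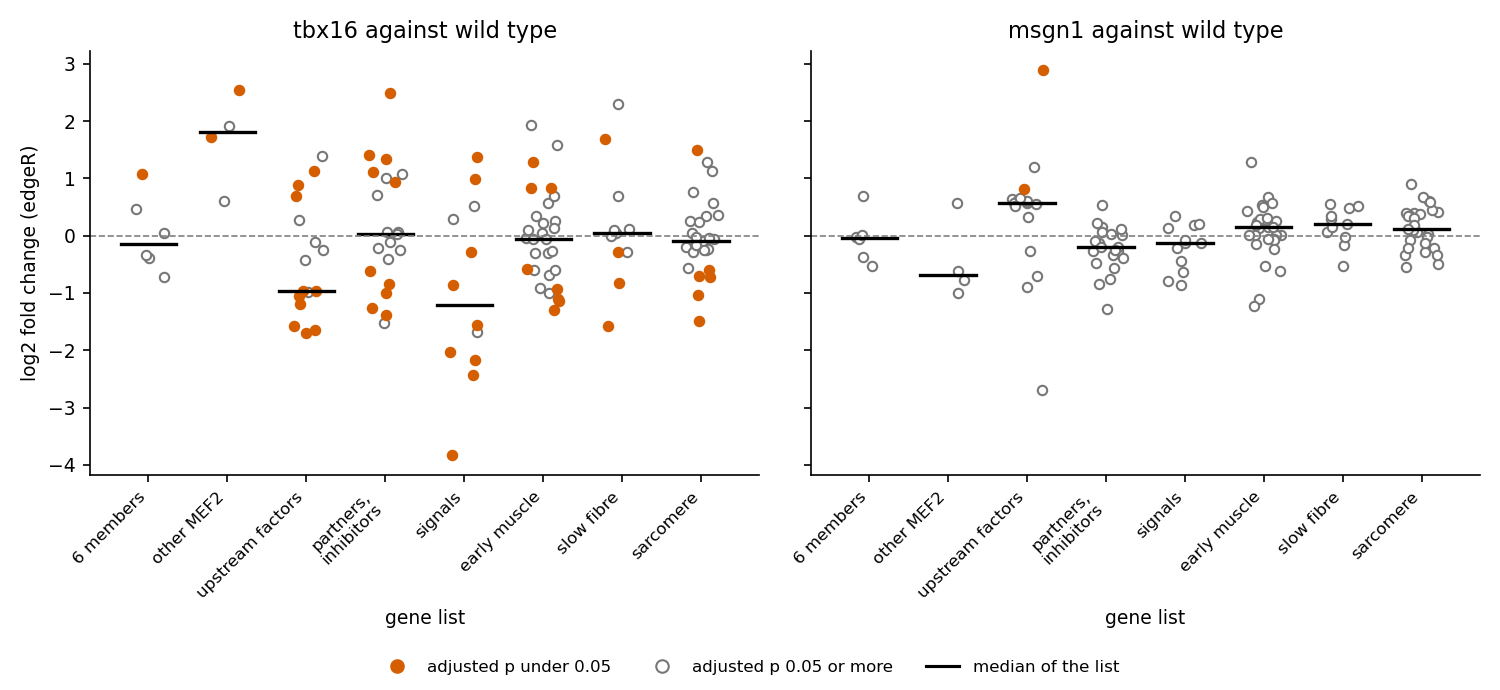
Log2 fold change from edgeR (y axis) of each gene tested in the 6 members and the 7 lists (x axis), for tg(hsp70l:tbx16) against wild type on the left and tg(hsp70l:msgn1) against wild type on the right. Filled points have an adjusted p under 0.05 and lines are list medians. *lbx1b* is counted in the median and not drawn, because 1 group had 0 counts. On the left the upstream factors and signals have medians of -0.97 and -1.21, and the sarcomere list one of -0.10.

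Between themselves the 6 genes followed no common pattern over the 9 samples. The highest Pearson correlation of log2 CPM was 0.623, between *myog* and *mef2ca*, and the lowest was -0.721, between *myf5* and *mef2ca*, with *myf5* and *myod1* at 0.535. The 9 samples hold 3 groups and share libraries, so these values describe the samples and carry no test. Among 13541 genes with a mean of at least 100 counts, those most like *mef2ca* were *slc4a4a* (0.983), *egfra* (0.982) and *gprc5ba* (0.977). The nearest to *myf5* were *foxb1b* and *p4ha2* (both 0.959) and *krcp* (0.94). *myod1* was nearest to *her2* (0.92), a Hairy-related gene, and *myog* to *pttg1* (0.983) and *nat9* (0.98). *mef2d* was nearest to *si:dkey-172h23.2* (0.971) and *slc34a2b* (0.962), and *myf6*, with its low counts, reached 0.918 with *matr3l1.1*, a name that 2 lines of the table share.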

How the data were processed

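Polyadenylated RNA of 9 tailbud pools was sequenced, and the authors deposited whole-number counts per gene, not scaled. Per the labels, reads were trimmed with Trim Galore 0.5.0 and aligned to GRCz11 with HISAT2 2.1.0. Genes were quantified with StringTie according to the study's methods. The annotation release, the use of strand and the step to whole counts are not given in the sources used here, so reads of overlapping genes may not be told apart. The 64 lines without a gene name (0.082 to 0.101% of counts) were left out, and each of the 1289 lines with a repeated name was kept as a gene.

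Samples were grouped by genotype. Counts were tested with edgeR 4.0.16 (limma 3.58.1, R 4.3.3): TMM scaling, filterByExpr, all 9 samples in 1 fit, quasi-likelihood F-test, Benjamini-Hochberg adjustment over 19914 genes and a threshold of 0.05. Standard errors and 95% intervals come from the same fit. DESeq2 1.42.0, RLE size factors, library size alone, other filters, only the groups compared, a replicate block and leaving out each sample were alternatives. The 6 genes, the gene lists and the tests were chosen with earlier results of these data known. In each list up to 4 called genes a direction with the largest change could be named. Nearest genes were taken from the 3 with the highest Pearson correlation, not all of which are reported here. The statistics were tested on simulated data.

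Chi-square per gene between replicates, a mean over genes, was at least 18.6, where counting error alone gives about 1. No library looked like a repeat of another. Averaged over genes, counting error was small beside the spread between samples. This need not hold for genes with few counts, such as *myf6* with 7 to 44 a sample. Tables were handled with Python 3.11.15 and pandas 2.3.3.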

Additional observations from a re-analysis of the deposited data

Results flagged for a closer look

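*mef2ca* was set apart because its difference from wild type was not the same in both lines by a direct test: it was higher in tg(*hsp70l:tbx16*) than in tg(*hsp70l:msgn1*) by 1.45 on the log2 scale (edgeR quasi-likelihood test, adjusted p = 0.000353), with 3 of 3 samples of the first line above all samples of the second. Of all genes tested, 38.3% passed the same test. With 3 samples a group, no single sample could be judged an outlier.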

How the results depend on the processing

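The call of *mef2ca* held in all alternatives, with log2 fold changes of 0.91 to 1.24 in tg(*hsp70l:tbx16*) against wild type (adjusted p 1.31e-06 to 0.0111) and 1.3 to 1.78 between the lines (adjusted p 2.52e-11 to 0.00211). No call reversed. For tg(*hsp70l:tbx16*) against wild type, 3 of the 6 genes were called with only those groups in the fit (*myog*, *mef2ca* and *mef2d*), and 1 to 2 when single samples were left out. For tg(*hsp70l:msgn1*) against wild type the count was 0 to 1 when single samples were left out, while calls over all genes ranged from 37 to 1198 beside 170, and DESeq2 called 0 of the 6 and 709 of all genes. Between the lines 2 were called with library size alone (*myog* and *mef2ca*), with DESeq2 and with only the groups compared (*myf6* and *mef2ca* in both), and 1 to 2 when single samples were left out. The cause of these changes was not tested. With library size alone the median log2 fold change of all genes moved to 0.18, -0.20 and 0.38 in the 3 comparisons. *myf6* could not be fitted with at least 10 counts in every sample, and its depth of 7 to 44 counts limits what can be seen.

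The labels do not say what the replicate numbers mark. Deviations of same-numbered samples correlated at 0.105, 0.0182 and 0.402 for wild type with tg(*hsp70l:msgn1*). The values were -0.0445, 0.116 and -0.0688 for wild type with tg(*hsp70l:tbx16*), and -0.12, 0.0746 and -0.0557 between the lines. Samples with different numbers gave -0.325 to 0.265, -0.15 to 0.173 and -0.142 to 0.17 in the same order. With so few values, whether same-numbered samples share a clutch cannot be decided. With the replicate number as a block, 1, 0 and 1 of the 6 genes were called, and 5436, 85 and 6901 of all genes beside 6120, 170 and 7637.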
